A study of Mus musculus with 12 samples.

Results

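Round spermatids, the haploid cells formed by the meiotic divisions of the mouse testis, were compared with pachytene spermatocytes, the meiotic cells that precede them. The comparison was made by array title: 6 of the 12 arrays of the series carry one of these cell types, with 1 round spermatid array and 1 pachytene array on each of 3 Affymetrix designs (U74Av2, U74Bv2 and U74Cv2). All 36701 non-control probe sets entered, and they represented 15964 named genes. Total RNA of isolated germ cells was hybridised in both groups, per the labels, which give no strain, age, treatment or isolation method and describe each array as a single sample. The other 6 arrays hold type A and type B spermatogonia and are used only to show the level of a gene before meiosis. With 1 array a side on each design there is no replicate error, and no p-value is given. Values are MAS5 signals on a linear scale, in signal units, and a floor of about 50 units was set under them. A gene counted as measured when it exceeded the floor in at least 1 of the 2 cell types. Where 1 of the 2 cells lay at the floor, the ratio gives only its smallest possible size and is written "at least". The arrays measure the RNA of a cell preparation, so fewer cells of a type and less RNA per cell cannot be told apart.

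At pachytene the homologous chromosomes are fully paired and recombination is completed, while the X and Y chromosomes are transcriptionally silenced within the sex body. After the meiotic divisions the round spermatid begins to build the sperm: the Golgi apparatus gives rise to the acrosome, a flagellum grows from the centriole, a microtubule manchette shapes the head, and histones are replaced by transition proteins and then by protamines. Many messengers of these structures are made in round spermatids and stored for translation in elongating cells. The activator CREM binds cyclic AMP response elements (CRE) in the promoters of many such genes.

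The 3 marker genes of round spermatids were high on the round spermatid arrays. Tnp2, a transition protein, read 10430.5 units in round spermatids and 491.7 units in pachytene spermatocytes. Tssk3, a testis-specific serine kinase, read 3439 units in round spermatids, against 35.2 units in pachytene spermatocytes. Akap4, the main scaffold of the fibrous sheath, had 2631 units in round spermatids and 91.2 units in pachytene spermatocytes. All 3 were below the floor on both spermatogonial arrays. Markers of pachytene did not separate the cells as a set. The synapsis gene Sycp1 read 454 units in round spermatids and 220 in pachytene spermatocytes. The cyclin gene Ccna1 read 806 units in round spermatids and 405 in pachytene spermatocytes. Mybl1, the transcription factor A-MYB of pachytene, had 194 units in round spermatids, against 1102 in pachytene spermatocytes, but Hspa2, a meiotic chaperone, had 11485 units in round spermatids and 12268 in pachytene spermatocytes, and Ldhc, the germ cell lactate dehydrogenase, 10651 units in round spermatids and 8691 in pachytene cells. The brightest probe set of Sycp3, a core protein of the synaptonemal complex, read 60.4 units in pachytene spermatocytes, under the highest negative control of that array (61.2), and so did not serve as a marker.

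The highest of the 19 negative controls read between 12.9 and 61.2 units on the 6 arrays, and 3 of the 19 exceeded the floor on each U74Cv2 array. The 3 prime to 5 prime signal ratio of the Gapdh control was 1.06 to 1.14 on round spermatid arrays and 0.691 to 0.796 on pachytene arrays. For the actin control it was 1.53 to 1.75 on round spermatid arrays and 1.48 to 1.77 on pachytene arrays. The same control probe set, repeated on the 3 designs, gave log2 ratios of round spermatids over pachytene with an SD of 0.44 (29 probe sets). Pairs of probe sets of one gene differed in their ratio by over 2-fold in 30.02% of 8154 pairs. In 1.14% of pairs a probe set was at least 2-fold higher in round spermatids and its partner at least 2-fold lower. No array repeats a cell type within a design, so the variation between cell preparations was not measured.

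Of 11203 measured genes, 499 were at least 4-fold higher in round spermatids (4.45%) and 255 at least 4-fold lower (2.28%). At a 2-fold threshold the balance turned, with 1180 genes higher (10.5%) and 1537 lower (13.7%), and the median log2 ratio of all measured genes was -0.06. The 499 higher genes had a median signal of 968 units in round spermatids and 87.8 units in pachytene spermatocytes, counting values below the floor at the floor. For the 255 lower genes these medians were 84.99 in round spermatids and 496 in pachytene spermatocytes. In 202 of the 499 higher genes (40.5%) both spermatogonial arrays were at or below the floor, against 17 of the 255 lower genes (6.67%) and 9.39% of all measured genes. Further measured probe sets existed for 160 of the higher genes, of which 72 had another one that was also at least 2-fold higher and 12 one that was at least 2-fold lower. Among 127 lower genes with further probe sets, 70 had another lower one and 2 a higher one. Of all measured genes, 3871 had further probe sets. In 763 of these another one was at least 2-fold in the same direction, and in 279 at least 2-fold in the opposite direction. Counted by probe set, 3.33% of 20172 measured ones were higher and 1.94% lower by 4-fold or more, and 9.2% higher and 12.5% lower by 2-fold or more.

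**Figure D1:**
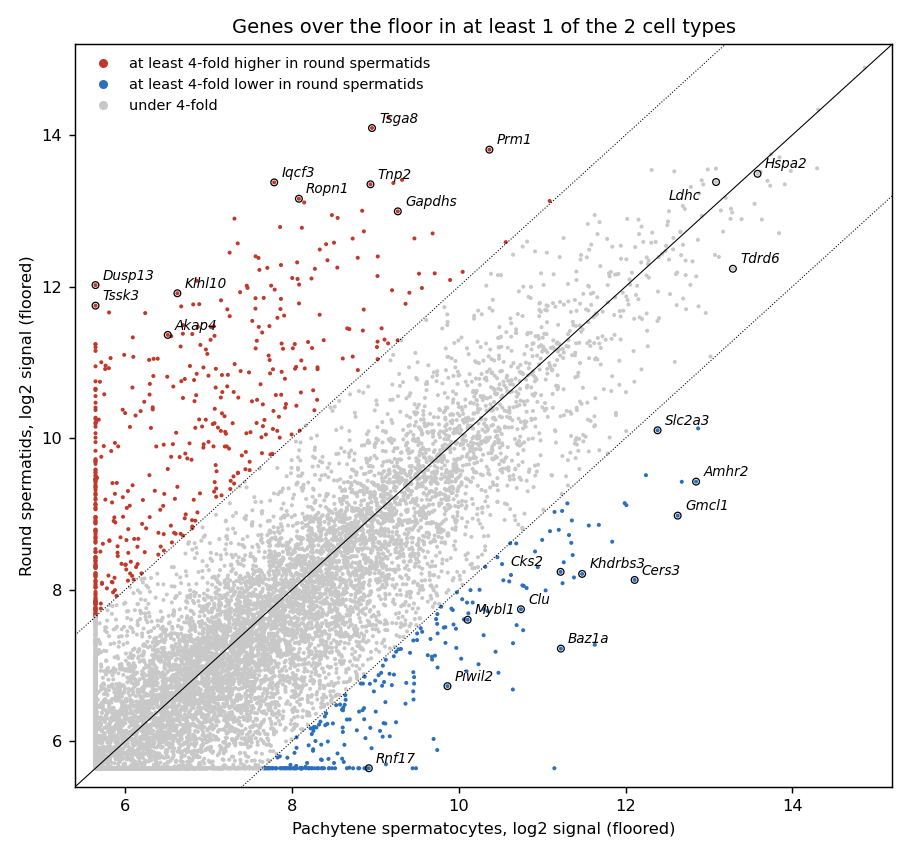
Signal of each measured gene in round spermatids (vertical axis) against pachytene spermatocytes (horizontal axis), both as log2 of the scaled MAS5 signal with values below the floor set to it. The solid line marks equal signal and the dotted lines a 4-fold difference; 499 genes lie above the upper and 255 below the lower dotted line, and the points lined up at the left and at the bottom are lower bounds.

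Iqcf3, which encodes an IQ motif protein, read 10616 units in round spermatids and 221 units in pachytene spermatocytes, a 48.1-fold difference, and its second probe set gave a log2 of 5.76. Trim36, a ubiquitin ligase gene with a role in the acrosome reaction, read 3213 units in round spermatids and 75.6 units in pachytene spermatocytes. Klhl10, the substrate adaptor of a cullin ubiquitin ligase needed for spermatid maturation, was 39.0-fold higher, with 3851 units in round spermatids and 98.8 in pachytene spermatocytes. Sun5, which anchors the tail to the sperm head, was 37.7-fold higher, the leucine-rich repeat gene Lrrc18 37.3-fold, the transcription factor gene Spz1 37.3-fold, the actin-related gene Actrt2 36.5-fold and the X-linked gene Tsga8 35.1-fold. Cdrt4, Cypt12, Arrdc5 and the clone 1700019M22Rik completed the 12 largest, with ratios of 35.5-fold to 48.0-fold. All 12 were below the floor on both spermatogonial arrays.

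A further group of genes was at the floor in pachytene spermatocytes, so that each ratio is a lower bound. Dusp13, a dual-specificity phosphatase gene, read 4151 units in round spermatids, against 20.2 units in pachytene spermatocytes, at least 83.0-fold higher, while its other measured probe set gave a log2 of -0.14. Tssk3 was at least 68.7-fold higher, with a log2 of 4.89 in its second probe set. Fam183b was at least 48.4-fold, the deubiquitinase gene Otub2 at least 48.2-fold, the clone 1700034E13Rik at least 47.0-fold, Ccdc183 at least 45.4-fold, Acsbg2, an acyl-CoA synthetase gene, at least 39.5-fold and the kinesin gene Kif17 at least 34.4-fold higher. The 4 other probe sets of Otub2 ranged from a log2 of -0.30 to 4.3.

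In the opposite direction the largest ratio measured in both cell types was 20.5-fold, in the clone 4930579G24Rik. Baz1a, a chromatin remodelling subunit, read 149 units in round spermatids and 2392 units in pachytene spermatocytes, a 16-fold difference that 2 other probe sets shared at log2 values of -2.89 and -2.58. Cers3, the ceramide synthase of very long chain lipids, had 280 units in round spermatids, against 4417 in pachytene spermatocytes, and was 15.8-fold lower. The potassium channel-related gene Kctd7 was 15.6-fold lower, Lcorl 14.5-fold, Tmem185b 12.7-fold, Gmcl1, the germ cell-less homologue, 12.5-fold and Tmem184a 11.9-fold. Gja1, a connexin gene of gap junctions, was 10.8-fold lower and Amhr2, the receptor of anti-Müllerian hormone, 10.7-fold. The clones 4930524B15Rik and 4933404O12Rik were 10.2-fold and 9.89-fold lower. Gja1 and Amhr2 are also genes of Sertoli cells. The other probe set of Gja1 gave a log2 of -0.90, and the 3 others of Amhr2 ranged from -3.34 to -0.37. The chosen probe sets of Gja1, Amhr2, Baz1a, Kctd7, Iqcf3 and 1700019M22Rik carry an ending that marks probes shared within a gene family. Those of Ccdc183, Tmem255a and Pogk carry it too. So do those of some genes named below, among them Eif2s3y, H2bc1, Cypt1, Adam6b, Tssk6 and Zp3r. Among genes at the floor in round spermatids, the clone 1700040D17Rik was at least 45.3-fold lower, Tmem255a at least 14.3-fold, Gm6653 at least 13.9-fold, Rnf17, a tudor protein of male germ cells, at least 9.70-fold, Cdc42ep4 at least 9.54-fold, Fam13c at least 9.34-fold, the tumour suppressor gene Rassf1 at least 8.95-fold and Pogk at least 8.88-fold. The other probe sets of Tmem255a and Pogk gave log2 ratios of -0.07 and -0.84.

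Promoters were read from RefSeq (GRCm38.p6, 250 bases before to 50 after the first listed start of each gene), and 393 of the 499 higher, 204 of the 255 lower and 9017 of the 11203 measured genes matched by symbol. The full CRE, TGACGTCA, which reads the same on both strands, was present in 24 promoters of higher genes (6.11%) and in 4 of lower genes (1.96%), against 3.08% of measured genes and 1.88% of all 27025 promoters. The shorter motif TGACGT, searched on both strands and contained in every full CRE, was in 10.9% of higher, 12.3% of lower and 11.5% of measured genes, and in 7.64% of all promoters. Promoters of higher genes had a median of 7 CpG dinucleotides and 54.0% G and C, against 21 and 60.0% for lower genes, 20 and 60.7% for measured genes, and 7 and 52.7% for all promoters. The MYB motif AACNGTT was in 6.36% of higher, 3.92% of lower and 3.50% of measured genes, and in 4.36% of all promoters. The X-box of RFX factors, searched on both strands, was in 1.02% of higher, 1.47% of lower and 1.08% of measured genes, and in 0.807% of all promoters. TATAAA, also searched on both strands, was in 6.87% of higher, 4.90% of lower and 7.69% of measured genes, and in 14.2% of all promoters. These shares are descriptions without a test. A match is neither a shown binding site nor a cause, and no match says only that these letters are not in the window.

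The 6 promoters below are shown 5′ to 3′ on the strand of the gene, with the full CRE in capitals. The first 4 belong to genes at least 4-fold higher in round spermatids that hold a full CRE: Iqcf3 (chr9:106561577-106561876, minus strand, CRE starting 51 bases before the start), Kif17 (chr4:138262001-138262300, plus strand, 86 bases before), the sperm-egg fusion gene Izumo1 (chr7:45621561-45621860, plus strand, 96 bases before) and the ring finger gene Znrf4 (chr17:56512434-56512733, minus strand, 69 bases before). Tnp2 (chr16:10788606-10788905, minus strand) is shown as a higher gene whose window holds neither the full nor the shorter motif. Pogk (chr1:166409779-166410078, minus strand, CRE 65 bases before) is a gene that was lower in round spermatids and holds the same element.
Iqcf3: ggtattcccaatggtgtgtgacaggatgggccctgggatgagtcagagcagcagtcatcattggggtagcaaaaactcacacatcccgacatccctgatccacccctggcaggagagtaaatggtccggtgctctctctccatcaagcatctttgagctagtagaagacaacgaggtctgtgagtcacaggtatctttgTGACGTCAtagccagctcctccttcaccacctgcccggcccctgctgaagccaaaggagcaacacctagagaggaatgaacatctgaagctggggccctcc
Kif17: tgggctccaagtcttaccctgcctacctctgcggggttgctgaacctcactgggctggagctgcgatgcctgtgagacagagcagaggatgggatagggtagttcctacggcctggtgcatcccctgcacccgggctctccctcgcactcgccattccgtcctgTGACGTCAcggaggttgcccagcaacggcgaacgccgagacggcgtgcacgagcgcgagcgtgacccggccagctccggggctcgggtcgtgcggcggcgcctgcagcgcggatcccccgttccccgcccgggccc
Izumo1: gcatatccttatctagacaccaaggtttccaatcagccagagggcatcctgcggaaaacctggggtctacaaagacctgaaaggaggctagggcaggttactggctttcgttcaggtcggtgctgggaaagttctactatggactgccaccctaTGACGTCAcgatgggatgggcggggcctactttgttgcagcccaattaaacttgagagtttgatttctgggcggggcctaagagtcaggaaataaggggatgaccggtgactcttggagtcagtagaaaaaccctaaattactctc
Znrf4: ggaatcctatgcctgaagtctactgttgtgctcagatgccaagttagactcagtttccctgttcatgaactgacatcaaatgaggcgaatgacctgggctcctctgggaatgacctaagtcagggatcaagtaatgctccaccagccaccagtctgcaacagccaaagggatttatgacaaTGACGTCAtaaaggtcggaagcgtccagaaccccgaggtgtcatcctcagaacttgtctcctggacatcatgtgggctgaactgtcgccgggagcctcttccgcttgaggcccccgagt
Tnp2: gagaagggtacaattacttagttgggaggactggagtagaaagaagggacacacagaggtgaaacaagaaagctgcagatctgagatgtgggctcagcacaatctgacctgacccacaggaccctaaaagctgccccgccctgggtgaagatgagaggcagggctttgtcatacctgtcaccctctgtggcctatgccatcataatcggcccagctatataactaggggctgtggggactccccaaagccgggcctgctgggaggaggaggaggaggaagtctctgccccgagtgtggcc
Pogk: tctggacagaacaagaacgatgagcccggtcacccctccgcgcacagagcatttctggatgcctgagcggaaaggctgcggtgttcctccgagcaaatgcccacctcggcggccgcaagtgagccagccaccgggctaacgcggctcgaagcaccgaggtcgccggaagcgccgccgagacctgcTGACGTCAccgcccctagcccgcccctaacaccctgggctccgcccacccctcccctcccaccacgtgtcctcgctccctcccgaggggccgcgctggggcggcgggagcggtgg

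Izumo1 read 1357 units in round spermatids and 80.5 units in pachytene spermatocytes, but its other probe set gave a log2 of 0.35. Znrf4 read 3123 units in round spermatids and 153 in pachytene cells. Pogk had 22.5 units in round spermatids, against 444 units in pachytene spermatocytes.

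Gene groups were described by 30 lists with 1106 genes, of which 68 were in more than 1 list. For each list the members past 2-fold in either direction are counted among those measured, to be read beside the 10.5% and 13.7% of all measured genes, together with its median log2 ratio beside the -0.06 of all measured genes. The lists were chosen with earlier results of these data known, so their counts are no independent evidence of a direction.

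**Figure D2:**
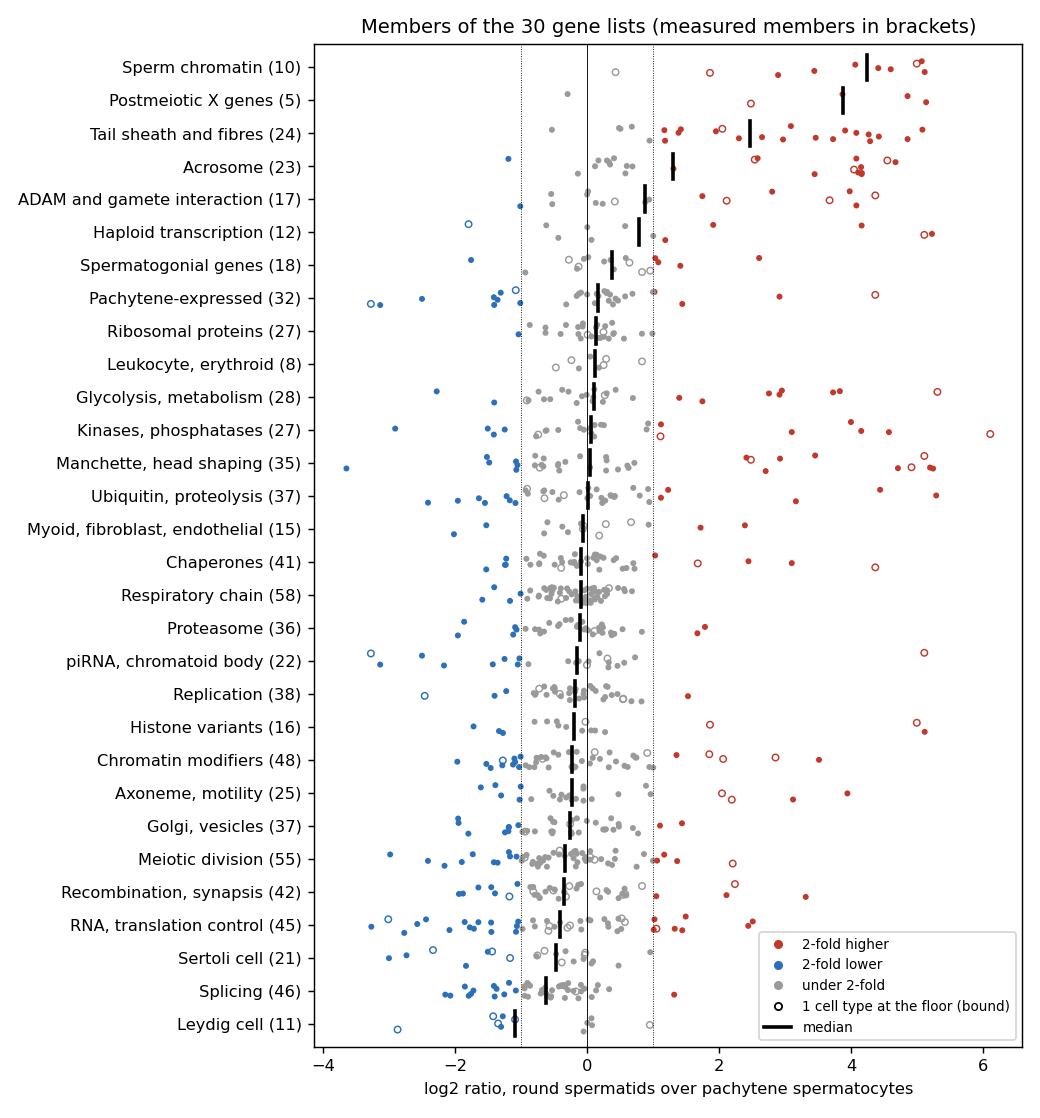
Log2 ratio of round spermatids over pachytene spermatocytes (horizontal axis) for each measured member of the 30 gene lists (rows, ordered by median, with the number of measured members). Red points are at least 2-fold higher, blue points at least 2-fold lower, open points are bounds with 1 cell type at the floor, and bars are medians; the sperm chromatin list has the highest median at 4.23 and the Leydig cell list the lowest at -1.09.

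Genes of sperm chromatin were higher in round spermatids in 9 of 10 measured members and lower in none, with a median log2 of 4.23. Prm1, a protamine that packs the DNA of the sperm head, read 14320 units in round spermatids and 1321 units in pachytene spermatocytes, and was 10.8-fold higher. Tnp1 and Tnp2, the transition proteins that precede protamines, were 7.41-fold and 21.2-fold higher. The linker histone gene Hils1 was 34.5-fold higher (2193 units in round and 63.5 in pachytene cells) and H1f7, the spermatid linker histone H1T2, at least 31.8-fold (1590 units in round and 6.40 in pachytene cells). H2al2a, a short histone H2A variant that loads with transition proteins, was 33.5-fold, Prm3 24.2-fold and Hmgb4, a testis HMG box protein, 16.7-fold higher. H2bc1, the testis histone H2B, was at least 3.63-fold higher. The exception was Prm2, the second protamine, whose brightest probe set read 67.3 units in round spermatids and 46.9 units in pachytene spermatocytes, at or near the floor in both. Further probe sets of Prm1, Tnp2 and Hils1 gave log2 ratios of 0.16, 0.53 and 0.41.

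Regulators of haploid transcription formed a mixed group, with 5 of 12 measured members higher and 1 lower and a median of 0.79. Spz1 read 6077 units in round spermatids and 163 units in pachytene spermatocytes. Creb3l4, a bZIP factor of the spermatid endoplasmic reticulum, was 17.8-fold higher, with 5746 units in round spermatids and 323 in pachytene spermatocytes. Kif17, the kinesin that carries the CREM coactivator FHL5 out of the nucleus, read 1721 units in round spermatids, against 46.3 units in pachytene spermatocytes. Nr6a1, the germ cell nuclear factor, was 3.75-fold and the heat shock factor gene Hsf2 2.27-fold higher. Factors known to act before or at the start of haploid life lay within 2-fold: Gtf2a1l, a germ cell TFIIA subunit, had 6755 units in round spermatids and 6464 in pachytene cells, Rfx2 951 units in round spermatids and 951 in pachytene spermatocytes, Tbpl1, the TBP-like factor, 1842 units in round spermatids and 1238 in pachytene cells, and the bromodomain gene Brdt 2432 units in round spermatids and 3295 in pachytene spermatocytes. Crem itself read 58.9 units in round spermatids, against 90.6 units in pachytene spermatocytes. Both signals were low, with that of round spermatids near the floor, and they differed by under 2-fold. Its other probe set gave a log2 of -0.62. The level of Crem is therefore not well measured here. Other probe sets of Tbpl1 gave log2 ratios from -3.49 to -2.17, and that of Brdt gave -1.40. Brwd1, lower in round spermatids by at least 3.48-fold, had 4 other measured probe sets from -0.24 to 1.13 on the log2 scale.

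The acrosome list had a median of 1.31, and 12 of its 23 measured members were higher and 1 lower. The acrosomal matrix gene Zp3r, which encodes sp56, read 3610 units in round spermatids and 142 units in pachytene spermatocytes, and was 25.4-fold higher. Acrv1, the acrosomal antigen SP-10, was at least 23.3-fold, Fam170b 17.9-fold, Spaca3, a lysozyme-like acrosomal protein, 17.7-fold, Izumo1 16.9-fold in its brightest probe set and the hyaluronidase gene Spam1 at least 16.5-fold higher. A second set of acrosomal genes was already high at pachytene and lay within 2-fold. Zpbp2, a zona pellucida binding protein, had 13344 units in round spermatids, against 14729 in pachytene spermatocytes. The protease gene Acr had 2305 units in round spermatids and 1874 in pachytene cells, Dkkl1 9599 units in round spermatids and 7557 in pachytene spermatocytes, Acrbp, the proacrosin binding protein, 840 units in round spermatids and 635 in pachytene cells, and Crisp2 5895 units in round spermatids and 3669 in pachytene spermatocytes. Gopc, a Golgi protein needed to form the acrosome, was 2.29-fold lower. The Golgi and vesicle traffic list had 2 of 37 members higher and 8 lower, with the small GTPase genes Rab27a 3.88-fold and Rab2a 3.48-fold lower.

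Among genes of gamete interaction 7 of 17 measured members were higher and 1 lower, with a median of 0.88. Calr3, a testis calreticulin needed for the maturation of ADAM3, read 1029 units in round spermatids and 34.6 units in pachytene spermatocytes, at least 20.6-fold higher. The metalloprotease family was split: Adam6b was at least 12.7-fold and Adam4 at least 4.32-fold higher, and Adam39 read 949 units in round spermatids, against 60.4 in pachytene spermatocytes, under the highest negative control there, whereas Adam2, a subunit of fertilin, had 921 units in round spermatids and 1346 in pachytene cells, Adam3 1480 units in round spermatids and 773 in pachytene spermatocytes, and Adam5 4151 units in round spermatids and 3532 in pachytene cells. Clgn, the chaperone calmegin that assembles fertilin, read 1558 units in round spermatids and 1560 units in pachytene spermatocytes. Tex101, a surface marker of germ cells, was 2.02-fold lower.

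The list for the sperm tail, which is not limited to structural proteins, had a median of 2.47. Of 24 measured members 19 were higher, and none was lower. Ropn1, ropporin of the fibrous sheath, read 9143 units in round spermatids and 271 units in pachytene spermatocytes, a 33.7-fold difference. Akap4 was 28.9-fold higher. Of the mitochondrial sheath, Spata19 was 21.3-fold and the cysteine-rich protein gene Smcp 19.2-fold higher. Oaz3, the testis antizyme, was 19.5-fold, Odf1, the main protein of the outer dense fibres, 16.9-fold, Gsg1 15-fold and Gapdhs, the sperm glyceraldehyde phosphate dehydrogenase bound to the sheath, 13.2-fold higher. The tektin genes Tekt2, Tekt4 and Tekt3 were 7.81-fold, 6.26-fold and 2.61-fold higher. Within 2-fold were Ropn1l, a ropporin relative (4349 units in round and 2725 in pachytene cells), and Cabyr (320 units in round and 230 in pachytene cells). Probe sets disagreed for Spata18, at 4.91-fold higher against a log2 of -1.27, and all other measured probe sets of Gsg1, Tekt2, Tekt3 and Odf2 lay below 2-fold, as did 1 of 2 for Odf1.

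The axoneme list, which holds the motor and scaffold of the flagellum, had 4 of 25 measured members higher and 5 lower, with a median of -0.24 that became 0.07 when arrays were scaled to the spike-in controls. Dnah8, a dynein heavy chain, read 728 units in round spermatids, against 2224 units in pachytene spermatocytes, and was 3.06-fold lower. Dnali1, an inner arm dynein chain, was 2.47-fold and Rsph1, of the radial spoke head, 2.04-fold lower, while the other probe sets of Dnah8 and Dnali1 gave -0.60 and -0.99 on the log2 scale. The central apparatus genes Spag6l (3670 units in round and 6609 in pachytene cells) and Spag16 (1861 units in round and 2767 in pachytene cells) and the channel gene Catsper2 (3255 units in round and 3386 in pachytene cells) lay within 2-fold. Other probe sets gave a log2 of -1.36 for Spag6l and from -1.09 to 0.28 for Spag16. Catsper1, the pore subunit of the sperm calcium channel, was 15.3-fold higher, with 1741 units in round spermatids and 113 units in pachytene spermatocytes. Txndc8, a spermatid thioredoxin, was 8.67-fold higher, and the adenylate kinase gene Ak1 at least 4.56-fold.

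Genes of the manchette and of head shaping include actin-related and nuclear envelope proteins and the transport machinery of the flagellum. Of 35 measured members 10 were higher and 6 lower, with a median of 0.04. Capza3, an actin capping protein of the perinuclear theca, read 1504 units in round spermatids and 43.7 units in pachytene spermatocytes, at least 30.1-fold higher. The actin-like gene Actl7a was 26.1-fold, Actl7b 5.32-fold and the nuclear envelope genes Sun3 and Spag4 7.56-fold and 6.51-fold higher. The microtubule tip gene Clip1 was 10.9-fold higher, but 0.11 on the log2 scale in its other probe set, and the other one of Spag4 gave 0.23. On the lower side were Gmcl1 (504 units in round and 6317 in pachytene cells), the microtubule severing gene Katnal1, 2.87-fold, the motor gene Kif3b, 2.11-fold, and the transport genes Ift140, 2.11-fold, and Ift20, 2.08-fold. Other probe sets of Kif3b and Ift20 gave log2 ratios of -0.88 and -0.61. Hook1 of the manchette had 238 units in round spermatids and 323 in pachytene spermatocytes and Ift88 971 units in round spermatids and 1047 in pachytene cells.

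Among kinases and phosphatases the testis-specific serine kinases stood on the higher side. Beside Tssk3, Tssk2 was 23.7-fold, Tssk6 17.7-fold, Tssk1 15.9-fold and Tssk4 at least 2.16-fold higher. Prkar2a, a regulatory subunit of protein kinase A found in the sperm tail, read 861 units in round spermatids and 101 units in pachytene spermatocytes, and was 8.56-fold higher, while its 2 other probe sets gave log2 ratios of -0.00 and 3.67. Mark2, a microtubule affinity kinase, had 351 units in round spermatids, against 2640 in pachytene spermatocytes, 7.51-fold lower, and its other probe sets gave log2 ratios of -2.38 and -2.33. Prkar1a, another kinase A subunit, was 2.84-fold and the centrosomal kinase Nek2 2.67-fold lower. Over the list 7 of 27 members were higher and 4 lower, with a median of 0.06.

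**Figure D3:**
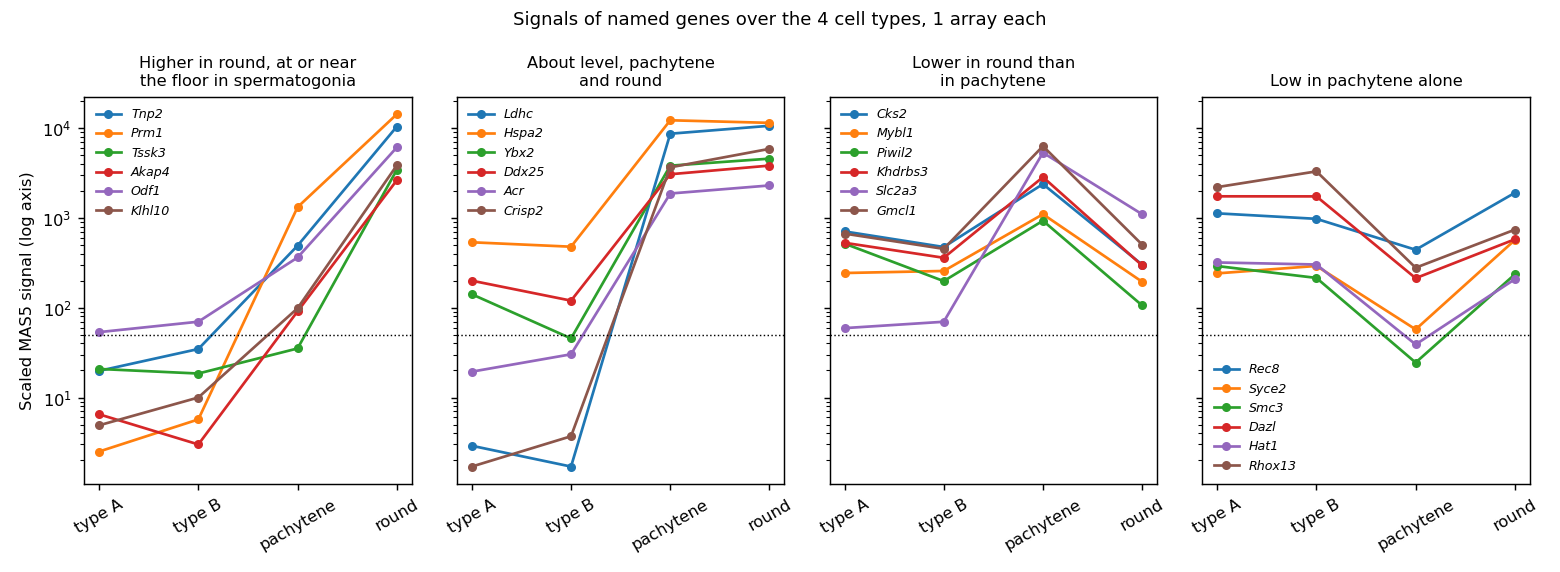
Scaled MAS5 signal (log axis) of 24 genes in the 4 cell types, from type A spermatogonia on the left of each panel to round spermatids on the right, 1 array per point, with the floor dotted. From left to right come genes higher in round spermatids, genes within 2-fold in both later cell types, and genes lower in round spermatids. The last panel, headed low in pachytene alone, holds genes whose lowest signal of the 4 cell types was in pachytene spermatocytes. Of these, Dazl, Hat1 and Rhox13 were also lower in round spermatids than in both types of spermatogonia. Tssk3 reads 3439 units in round spermatids and 35.2 in pachytene spermatocytes. Cks2 reads 301 units in round spermatids and 2387 in pachytene spermatocytes. The genes of each panel were picked after their values were seen.

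Energy metabolism held genes on both sides, with 8 of 28 measured members higher, 2 lower and a median of 0.10. Gapdhs read 8146 units in round spermatids and 617 units in pachytene spermatocytes. The aldolase retrogene Aldoart2 was 14.2-fold, Pgk2, the autosomal phosphoglycerate kinase, 7.52-fold, Aldoa 3.35-fold and Tpi1, triose phosphate isomerase, 2.63-fold higher. The monocarboxylate transporter gene Slc16a7 was 7.71-fold and the sperm sodium pump gene Atp1a4 6.73-fold higher. By contrast Slc2a3, a glucose transporter gene, had 1100 units in round spermatids, against 5344 in pachytene spermatocytes, 4.86-fold lower in the chosen probe set and lower in both others (log2 -2.60 and -2.32). Cyct, the testis cytochrome c, was 2.66-fold lower. The lactate dehydrogenase genes Ldhc, Ldha (4651 units in round and 4316 in pachytene cells) and Ldhal6b (10423 units in round and 15380 in pachytene cells) lay within 2-fold, as did Pdha2, the germ cell pyruvate dehydrogenase subunit (1749 units in round and 1955 in pachytene cells). In the respiratory chain list 4 of 58 members were lower and none higher, with a median of -0.10. Sdhc was 3.01-fold lower, but its other probe set gave a log2 of 0.27.

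Ubiquitin and proteolysis genes were spread on both sides, with 5 of 37 measured members higher and 7 lower and a median of 0.02. Next to Klhl10, the ring finger gene Rnf133 was 21.6-fold higher (2826 units in round and 131 in pachytene cells) and Asb9 8.93-fold. Ube2j1, a ubiquitin-conjugating enzyme of the endoplasmic reticulum, read 11894 units in round spermatids and already 5089 units in pachytene spermatocytes, with a log2 of -0.57 in its other probe set. Psma8, the meiotic proteasome subunit, had 532 units in round spermatids, against 2068 in pachytene spermatocytes, 3.89-fold lower. Fbxo43, an inhibitor of the anaphase-promoting complex, was 5.33-fold and the cullin gene Cul4a 2.93-fold lower. Psme4, the proteasome activator of histone breakdown, had 1267 units in round spermatids and 954 in pachytene cells. Among 36 proteasome genes 2 were higher and 5 lower, with a median of -0.10. Psma6 was 3.18-fold higher. Psmf1 was 3.44-fold higher, but its 3 other probe sets ranged from a log2 of -1.34 to 0.03, and Psmd7 3.64-fold lower.

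Meiotic recombination and synapsis genes had 7 of 42 measured members lower and 4 higher, with a median of -0.35. Atr, the checkpoint kinase that acts on unpaired chromosomes, read 451 units in round spermatids and 1736 units in pachytene spermatocytes, and was 3.85-fold lower. Terb1, which ties telomeres to the nuclear envelope, was 3.69-fold, the mismatch repair gene Mlh3 of crossover formation 3.14-fold, Mdc1, which spreads the silencing mark over the sex chromosomes, 2.74-fold and Spo11, the enzyme of meiotic breaks, 2.63-fold lower. The other probe sets of Terb1 and Mlh3 gave log2 ratios of -0.61 and -0.24. Stag3, a meiotic cohesin, stayed high in both, with 7556 units in round spermatids and 12714 in pachytene spermatocytes. Other members were higher: Syce2, of the synaptonemal complex, read 569 units in round spermatids and 57.4 units in pachytene spermatocytes, 9.91-fold higher. Smc3 was at least 4.71-fold, the cohesin gene Rec8 4.31-fold and Sycp1 2.06-fold higher. Syce2, Smc3, Rec8 and Sycp1 had no other measured probe set. Before meiosis, Rec8 had 1127 units in type A and 979 in type B spermatogonia, Syce2 242 in type A and 292 in type B, and Smc3 292 in type A and 215 in type B. For these 3 genes the pachytene signal was the lowest of the 4 cell types, a pattern picked out after the values were seen.

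Genes of the meiotic divisions were lower in 10 of 55 measured members and higher in 4, with a median of -0.34. Cks2, the cyclin-dependent kinase subunit needed for the first division, read 301 units in round spermatids, against 2387 units in pachytene spermatocytes, and was 7.92-fold lower. Prc1, of the central spindle, was 4.48-fold and Cdk2 3.73-fold lower, and Sgo2a, the shugoshin that protects centromeric cohesion, 3.33-fold. Cdkn2d, an inhibitor of cyclin D kinases, was 2.57-fold lower. The cyclin gene Ccna1 had 806 units in round spermatids and 405 units in pachytene spermatocytes, Ccnb2 2033 units in round spermatids and 1211 in pachytene cells, Plk1 985 units in round spermatids and 544 in pachytene spermatocytes and Cdk1 257 units in round spermatids and 393 in pachytene cells, all within 2-fold. Cdc25c, the phosphatase that activates Cdk1, was at least 4.60-fold and Bub1, of the spindle checkpoint, 2.57-fold higher. The other probe sets of Bub1 and Sgo2a gave log2 ratios of -0.26 and -0.70, and those of Plk1 gave 0.86 and 1.25. Replication genes had 1 of 38 members higher and 3 lower, with Gmnn, the licensing inhibitor geminin, at least 5.51-fold lower and Rrm2 2.88-fold higher.

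Among RNA-binding and translation control genes 15 of 45 measured members were lower and 8 higher, with a median of -0.41. Khdrbs3, a STAR family splicing regulator, read 296 units in round spermatids and 2855 units in pachytene spermatocytes, 9.65-fold lower, although its other probe set gave a log2 of -0.29. Cpeb2, a cytoplasmic polyadenylation factor, was at least 8.08-fold, Elavl1, the stabilising protein HuR, 6.83-fold, Paip1, of the poly(A) binding protein, 5.96-fold and Dazap1 5.43-fold lower. The other probe sets gave log2 ratios of -1.74 and 0.63 for Dazap1, and of -1.27 and -0.46 for Elavl1. On the higher side, Samd4, a translational repressor of the Smaug family, was 5.68-fold and Msi2, a Musashi protein, 5.42-fold higher, and Papolb, the cytoplasmic poly(A) polymerase of spermatids, 2.50-fold. The genes of some other RNA-binding proteins lay within 2-fold, among them Ybx2, with 4583 units in round spermatids and 3829 in pachytene spermatocytes. Ddx25 had 3835 units in round spermatids and 3073 in pachytene cells, and Pabpc1 7818 units in round spermatids and 7717 in pachytene spermatocytes. Dazl, a translational activator of germ cells, read 1744 units in type A and 1741 in type B spermatogonia, 213 in pachytene and 579 in round cells, and its other probe set gave a log2 of 0.78. The 3 others of Msi2 ranged from -0.29 to 2.32.

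The piRNA pathway, which silences transposons and processes pachytene piRNAs, had 8 of 22 measured members lower and 1 higher, with a median of -0.15. Piwil2, a PIWI protein, read 106 units in round spermatids, against 932 units in pachytene spermatocytes, 8.80-fold lower. Mybl1, which drives piRNA precursors, was 5.67-fold, Tdrkh, a mitochondrial tudor protein, 4.50-fold, Pld6, of piRNA biogenesis, 2.70-fold and Ago4 2.38-fold lower, and the second probe sets of Mybl1, Pld6 and Ago4 were lower too. Tdrd6, a scaffold of the chromatoid body, was 2.07-fold lower from a high level, with 4819 units in round spermatids and 9996 in pachytene cells. The helicase gene Ddx4 (1656 units in round and 1811 in pachytene cells) and Mael (427 units in round and 341 in pachytene cells) lay within 2-fold. The 1 higher member was Kif17, which is bound to the chromatoid body. The wider list of pachytene-expressed genes had a median of 0.16 over 32 members, of which 9 were lower and 4 higher, and the median became -0.05 with quantile scaling.

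Splicing factors had a median of -0.63, with 12 of 46 measured members lower and 1 higher. Hnrnpl read 89.4 units in round spermatids and 397 units in pachytene spermatocytes, 4.44-fold lower. Hnrnpk was 4.21-fold, Hnrnpm 3.62-fold, Tra2b 3.47-fold, Hnrnpa2b1 3.39-fold and Srsf1 3.30-fold lower. These RNA-binding proteins act in the choice of splice sites, and the second probe sets of Hnrnpm and Srsf1 were lower too. Snrpg, a core snRNP protein, was 2.49-fold higher. Ribosomal protein genes had 1 of 27 members lower (Rps3, 2.06-fold, with other probe sets at -0.42 and 0.31 on the log2 scale) and none higher. Their median of 0.13 became -0.08 when arrays were scaled to the spike-in controls.

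Chromatin modifiers were lower in 10 of 48 measured members and higher in 5, with a median of -0.23. Kat7, a histone acetyltransferase, read 445 units in round spermatids and 1743 units in pachytene spermatocytes, 3.91-fold lower. Kdm5b, a histone H3 lysine demethylase, was 2.88-fold (other probe sets from -2.13 to 0.37) and Smarca4, the motor of SWI/SNF remodelling, 2.76-fold lower. Hdac11, a deacetylase, was 11.4-fold higher, Suv39h2, a testis histone methyltransferase, at least 7.21-fold and Hat1, which acetylates new histones, at least 4.16-fold. The second probe sets of Suv39h2 and Hdac11 were under 2-fold, at log2 values of 0.70 and 0.86. Histone genes and their chaperones had 3 of 16 members higher, all 3 of them in the sperm chromatin list, and 3 lower, among them Slbp, the histone stem-loop binding protein, 3.30-fold. Chaperones had 5 of 41 members higher, 4 lower and a median of -0.10. Hspa1l, a spermatid heat shock protein, was 8.56-fold higher (1251 units in round and 146 in pachytene cells), and St13, a cochaperone, 2.89-fold lower, with its 3 other probe sets between -0.28 and -0.01 on the log2 scale.

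The X and Y chromosomes were described apart from the autosomes, without a test. Of 272 measured X-linked genes 62 were at least 2-fold higher (22.8%) and 21 lower (7.72%). At 4-fold, 20 were higher (7.35%) and 3 lower (1.10%). For 10886 autosomal genes the 2-fold counts were 1112 higher (10.2%) and 1512 lower (13.9%), and the 4-fold counts 476 (4.37%) and 252 (2.31%). The median log2 was 0.25 on the X chromosome and -0.07 on autosomes, and the medians of the single autosomes lay between -0.12 and 0.00. Of 515 named X-linked genes 65.2% exceeded the floor in type A, 68.9% in type B, 39.2% in pachytene and 44.1% in round cells. For 15360 autosomal genes the shares were 68.9% in type A, 70.9% in type B, 64.0% in pachytene and 63.9% in round cells. Of the 272, 70 (25.7%) exceeded the floor in round spermatids only and 45 (16.5%) in pachytene spermatocytes only, against 10.2% of all measured genes in round spermatids only and 9.93% in pachytene spermatocytes only.

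**Figure D4:**
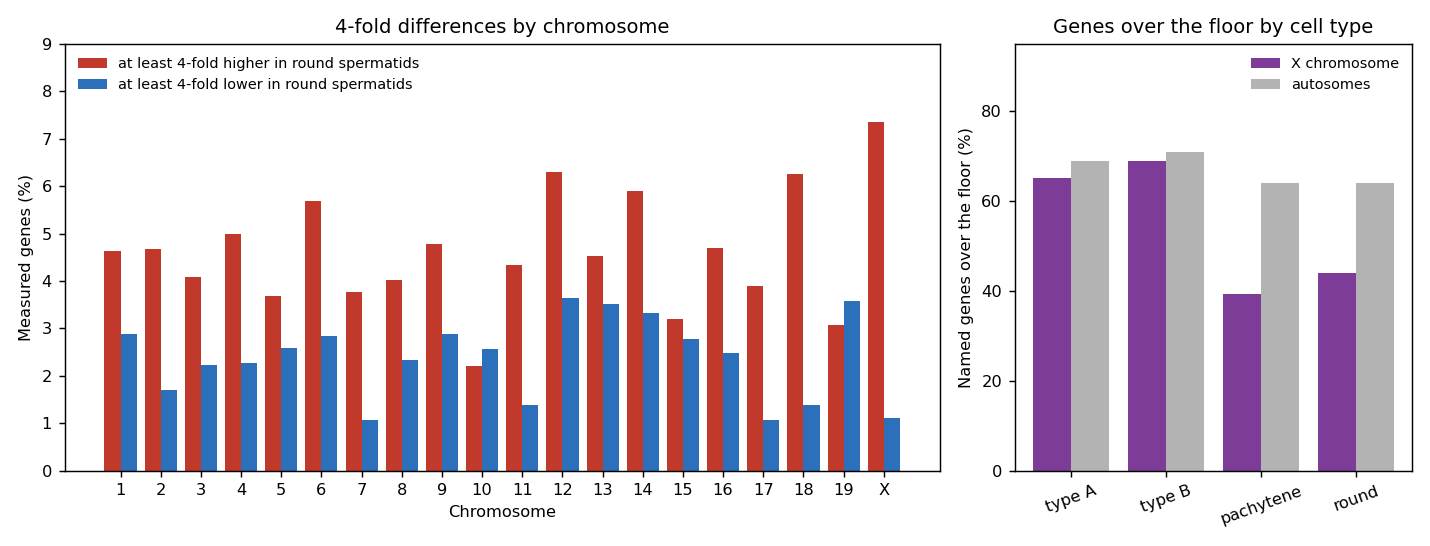
Left, share of measured genes at least 4-fold higher (red) or lower (blue) in round spermatids than in pachytene spermatocytes, by chromosome. Right, share of named genes over the floor in each cell type for the X chromosome (purple) and the autosomes (grey); the X chromosome share is 39.2% in pachytene spermatocytes and 44.1% in round spermatids.

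Tsga8, which encodes a haploid nuclear protein, read 17452 units in round spermatids, against 498 units in pachytene spermatocytes. Ctag2 read 863 units in round spermatids and 52.5 in pachytene spermatocytes, where it was under the highest negative control. Akap4 was 28.9-fold, Ppp1r2-ps7 at least 16.2-fold, Cypt1, a cysteine-rich perinuclear theca protein, 14.6-fold and Acot9, an acyl-CoA thioesterase gene, at least 14-fold higher. The actin-related gene Actrt1 was at least 5.57-fold higher, while Cypt3 had 324 units in round spermatids and 398 in pachytene spermatocytes. Lower X-linked genes were Tmem255a, Gm9112 at least 6.55-fold, the junction gene Vsig1 at least 5.90-fold, 1700011M02Rik 3.95-fold, Lonrf3 3.20-fold and Gpm6b at least 2.80-fold. Other probe sets of Tmem255a, 1700011M02Rik and Gpm6b gave log2 ratios of -0.07, -0.22 and -0.28. Usp26 and Rhox13 were higher in spermatogonia than in both later cells. Usp26, a ubiquitin protease gene, had 1723 units in type A and 1111 in type B spermatogonia, 109.8 in pachytene and 238 in round cells. Rhox13, a homeobox gene, had 2208 units in type A and 3308 in type B spermatogonia, 279 in pachytene and 742 in round cells. Of 7 named Y-linked genes 3 were measured. Eif2s3y, a translation factor subunit, read 194 units in round spermatids and 19.2 units in pachytene spermatocytes, at least 3.87-fold higher. Its probe set has the ending of probes shared within a gene family. Uba1y, the Y-linked ubiquitin-activating enzyme, had 82.6 units in round spermatids and 30.8 in pachytene cells and Sry 13.9 units in round spermatids and 52.5 in pachytene spermatocytes, while Kdm5d, Uty, Rhoay-ps3 and Tspy-ps were at the floor in both.

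Groups defined by gene names were also counted. Genes named after RIKEN clones from testis libraries were at least 2-fold higher in 90 of 239 (37.7%) and lower in 33 (13.8%). Their median was 0.39. Of all measured genes 10.5% were higher and 13.7% lower by 2-fold or more. At 4-fold, 52 of the RIKEN-named genes were higher (21.8%) and 9 lower (3.77%), against 4.45% and 2.28% of all measured genes. Zinc finger genes named Zfp were at least 2-fold higher in 13 of 186 (6.99%) and lower in 25 (13.4%), with a median of -0.24.

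Genes of other testis cells were also measured. Of 21 measured Sertoli cell genes 7 were lower in round spermatids and none higher, with a median of -0.47. Clu, clusterin, read 214 units in round spermatids and 1717 units in pachytene spermatocytes, 8.02-fold lower, and its second probe set gave a log2 of -3.07. The cathepsin gene Ctsl was 6.67-fold, the inhibin gene Inha at least 5.05-fold and Cst9 3.57-fold lower. Of 11 Leydig cell genes 6 were lower and none higher, with a median of -1.09. Cyp17a1, a steroidogenic enzyme, read 16.1 units in round spermatids, against 366 units in pachytene spermatocytes, at least 7.33-fold lower, and Cyp11a1 was at least 2.68-fold lower. The 6 defining Sertoli markers summed to 787 units in round spermatids and 2436 in pachytene spermatocytes, and the 5 Leydig markers to 182 units in round spermatids and 663 in pachytene cells. Most of each difference lay in 1 gene. Without Clu the Sertoli sum was 573 units in round spermatids and 720 in pachytene spermatocytes, and without Cyp17a1 the Leydig sum was 166 units in round spermatids and 296 in pachytene spermatocytes. Sox9, a defining Sertoli factor, had 394 units in round spermatids and 409.8 in pachytene spermatocytes. The part of these cells in the genes lower in round spermatids, such as Gja1 and Amhr2 above, was not tested. Muscle, fibroblast and endothelial genes had 2 of 15 members higher and 2 lower, with the matrix genes Dcn 5.23-fold higher and Sparc 4.05-fold lower. Of 8 leukocyte and erythroid genes the 3 measured in both cells were under 2-fold, and the other 5 had 1 cell type at the floor and bounds under 2-fold. Spermatogonial genes were higher in 4 of 18 members and lower in 1: Sall4 was 6.07-fold and Dmrt1 2.11-fold higher, and the 6 defining spermatogonial markers summed to 989 units in round spermatids and 308 in pachytene spermatocytes, of which Sall4 gave 588 units in round spermatids and 96.8 in pachytene spermatocytes. Against these sums, the 6 round spermatid markers came to 33952 units in round spermatids and 2251 in pachytene cells. The 6 pachytene markers, Sycp3 still counted among them, came to 23602 units in round spermatids and 22746 in pachytene spermatocytes. Most of each sum lay in Hspa2 and Ldhc. Hspa2 gave 11485 units in round spermatids and 12268 in pachytene spermatocytes, and Ldhc 10651 in round and 8691 in pachytene cells. The sum did not separate the cells, and it says little about the other markers, which went both ways.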

How the data were processed

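Per the labels, the RNA was labelled with the one-cycle protocol for Affymetrix arrays of 3 designs. The deposited table of each design gives 1 intensity signal for a probe set on an array. MAS5 is the tool in the submitters' processing notes; version and settings are not given in the sources used here. Each array was then scaled to the geometric mean of the trimmed means (2% off each end) of the 4 arrays of its design. Values were floored at 0.4 of that mean and log2 was taken (Python 3.11.15, pandas 2.3.3, numpy 2.4.6). Control probe sets were left out after scaling. Depth on an array is its signal over background.

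Of 36701 probe sets 29131 had 1 gene symbol in the platform annotation, 724 several and 6846 none. Symbols were updated by Entrez identifier to RefSeq (GRCm38.p6), which held 29044, and chromosomes came from the same table. Each gene took the brightest of its probe sets, by mean signal across all 4 cell types. Designs are never compared with each other, but the choice between probe sets crosses designs. All ratios are round spermatids over pachytene spermatocytes. No test was run, since each design has 1 array of a cell type. The calculation was tested on simulated data.

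Named were, in each direction, the 12 genes with the largest ratios, measured in both cell types over the highest negative control and at least 2 floors in the higher; the 8 with the highest bound; up to 6 members of each list, with defining members whatever their value; 6 X-linked genes in each direction; the measured Y-linked genes; and the marker genes. Further members, the printed promoters and Znrf4 were chosen after values were seen. Members and lists were chosen with earlier results of these data known. The alternatives were 3 other scalings, 4 other floors, other fold thresholds, other choices of probe set and each design alone.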

Additional observations from a re-analysis of the deposited data

How the results depend on the processing

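No paired analysis was possible because each design holds 1 array per cell type, and for the same reason no array could be left out. Of 499 genes at least 4-fold higher and 255 lower in round spermatids, scaling to a common median gave 535 and 279, to the spike-in controls 509 and 325, and by quantiles 508 and 247. Except for the floor at the highest negative control, the other floors moved the counts more than the scalings did. Without a floor the counts were 1034 and 756, with a floor at 0.2 of the trimmed mean 624 and 383, at 0.8 of it 390 and 149, and at the highest negative control 528 and 288. A 2-fold threshold gave 1180 and 1537, and an 8-fold threshold 263 and 38. The mean over probe sets gave 412 and 168, and leaving out special probe set endings 397 and 206. On fewer genes, U74Av2 alone gave 140 and 78, U74Bv2 alone 200 and 105, and U74Cv2 alone 220 and 123. The share of 4-fold calls that were higher was 66.2%, and ranged from 57.8% without a floor to 72.4% with a floor at 0.8. With the threshold it moved further, to 43.4% at 2-fold and 87.4% at 8-fold.

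The median of X-linked genes minus that of autosomal genes was 0.32 and lay between 0.22 and 0.39 under the 12 alternatives. Some list medians near 0 turned their sign with the scaling to spike-in controls: manchette genes (-0.00), kinases (-0.08), ubiquitin genes (-0.22) and leukocyte genes (-0.06). Single genes turned direction with another probe set. Without special endings the log2 ratio was 0.63 for Dazap1, -0.0041 for Prkar2a and -0.57 for Ube2j1. U74Av2 alone gave 0.63 for Dazap1. U74Bv2 alone gave 1.13 for Brwd1, -0.0041 for Prkar2a, 0.27 for Sdhc and -0.57 for Ube2j1. U74Cv2 alone gave 0.37 for Kdm5b, -0.41 for Odf2 and -0.0848 for Tekt2. The cause was not tested. Signals near the floor are not separable from background, and the 1 array per side leaves the spread between cell preparations unknown.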
